A study of Rattus norvegicus with 15 samples.

Results

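The motile cilium axoneme genes described here are the genes of a rat lung expression table that encode the beating core of the cilium, the factors that assemble its dynein motors, or the transcription factors that switch such genes on. They were chosen by symbol alone. The rule took every gene whose symbol starts with Dnah, Dnai, Dnaaf, Cfap, Rsph, Drc or Tekt followed by a digit, and added Rfx2, Rfx3, Spag6, Spag16, Spag17 and Hydin. It found 65 of the 22250 genes in the table. Foxj1, which the rule also names, was not found under that symbol in the expression table, so it was not analysed here. Of the 65 members, 55 reached 1 FPKM in at least 5 of the 15 libraries and were tested, among 13457 genes tested in all. FPKM is the number of sequenced fragments assigned to a gene, scaled for its length and for the size of the library.

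The tissue was lung of wild-type rats (WT in the labels), in 3 groups of 5 libraries. Control rats were normal animals. ALI rats received lipopolysaccharide (LPS, a bacterial wall component that sets off inflammation) through the trachea as a model of acute lung injury. SJY rats received the same tracheal LPS and, into the stomach, the herbal formula Sang Ju Yin. The libraries carry the numbers 4 to 8 (control), 1 to 5 (ALI), and 1, 3, 4, 5 and 6 (SJY), and values are listed in that order. Strain, age, sex, dose, time after LPS and the number of animals per library are not stated in the labels, which also name no group given LPS with a vehicle, or the formula alone. If libraries do not come from separate animals, the p-values measure only the spread between libraries.

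A motile cilium is a ring of microtubule doublets around a central pair. Outer and inner dynein arms slide the doublets past each other, and radial spokes, the nexin-dynein regulatory complex and the central apparatus time that sliding. In the lung these structures sit on the multiciliated cells of the airways, where their beat carries mucus and trapped particles towards the throat. The transcription factors Rfx2 and Rfx3 bind a short promoter element called the X-box and act with Foxj1 on many of these genes. In RNA from lung tissue, fewer ciliated cells, less RNA per ciliated cell and more RNA from other cells cannot be told apart. FPKM is scaled for the size of the library.

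The names of some members come from a family nomenclature and do not prove a place in the cilium. Cfap36, Cfap97, Cfap298 and Cfap410 are expressed well beyond ciliated cells. Dnah8, Dnah17, Rsph6a and Cfap97d1 are known chiefly from the sperm flagellum, as is Tekt5. The 8 testis germ cell markers looked at, such as Prm1, stayed under 1 FPKM in every library.

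Promoters were searched for the elements that RFX and forkhead factors are known to bind, because the members include Rfx2 and because most of them shifted in one direction. The window was 250 bases before to 50 after each annotated start in RefSeq (assembly GRCr8), read on both strands. The searched letters were GTTNCCATG (the core of an X-box), GTTGCC (its half-site, contained in the core when N is G) and TGTTTAC (a forkhead element). The GTTGCC half-site stood in 30.0% of the 80 windows of the 54 members found in the RefSeq table, against 12.2% of all 33469 windows. The X-box core stood in 5.0% of the members' windows against 1.8% of all, and the forkhead letters in 5.0% against 3.78%. These shares were not tested, and a match of letters is not evidence of binding.

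Counted by gene, 19 of the 47 tested members with a window (40.4%) had a half-site in at least 1 window, against 13.1% of all 27457 genes. Of the 9 members that fell in ALI against control, 8 had a window, and 3 of these held a half-site: Dnah11 (in 2 of its 6 windows), Hydin and Rfx2 itself. None of the 19 windows of those 8 genes held the X-box core in the exact letters searched. Forms of the X-box that depart from these letters were not searched for, so the windows are not shown to lack one. The core was found in 4 members that did not pass the test (among them Cfap161, Dnaaf2 and Dnah12). For Dnah11, Hydin and Rfx2, 1 half-site window each is shown, and for the core that of Dnaaf2. For Dnah11 it is the half-site window with the lower coordinate. Dnah11 lies on the minus strand, so this annotated start is downstream, within the gene, of that of its other half-site window (chr6:145298474-145298773). That upstream window is not shown, and which start is used in lung was not tested. They are printed 5′ to 3′ on the strand of the gene, in GRCr8, with the matched letters in capitals. Dnaaf2 was picked after its match was seen.
Dnah11 (chr6:145213622-145213921, minus strand, 1 of its 2 windows with a half-site): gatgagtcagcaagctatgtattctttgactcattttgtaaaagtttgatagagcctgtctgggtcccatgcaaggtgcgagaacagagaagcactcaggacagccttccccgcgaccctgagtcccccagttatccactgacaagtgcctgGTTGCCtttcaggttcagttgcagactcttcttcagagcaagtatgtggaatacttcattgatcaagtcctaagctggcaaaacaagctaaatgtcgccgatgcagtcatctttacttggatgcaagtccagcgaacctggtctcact
Hydin (chr19:55146216-55146515, plus strand): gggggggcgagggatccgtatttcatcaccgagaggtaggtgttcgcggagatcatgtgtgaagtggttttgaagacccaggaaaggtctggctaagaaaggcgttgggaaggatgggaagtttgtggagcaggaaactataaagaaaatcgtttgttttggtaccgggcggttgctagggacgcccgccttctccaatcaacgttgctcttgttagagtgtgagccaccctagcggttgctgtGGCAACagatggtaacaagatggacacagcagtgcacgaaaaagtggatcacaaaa
Rfx2 (chr9:1758097-1758396, minus strand): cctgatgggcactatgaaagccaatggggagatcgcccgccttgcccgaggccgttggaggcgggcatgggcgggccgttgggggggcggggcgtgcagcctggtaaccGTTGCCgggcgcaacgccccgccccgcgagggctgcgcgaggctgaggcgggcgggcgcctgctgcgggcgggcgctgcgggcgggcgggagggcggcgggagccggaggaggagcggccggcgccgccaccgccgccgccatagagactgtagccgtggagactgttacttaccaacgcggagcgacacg
Dnaaf2 (chr6:93406274-93406573, minus strand): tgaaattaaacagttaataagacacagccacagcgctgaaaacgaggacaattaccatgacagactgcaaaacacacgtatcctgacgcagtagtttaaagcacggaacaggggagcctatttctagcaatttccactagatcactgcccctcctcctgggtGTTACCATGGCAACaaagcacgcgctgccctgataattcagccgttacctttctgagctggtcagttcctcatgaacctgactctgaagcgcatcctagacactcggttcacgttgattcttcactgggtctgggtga

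Positions in these windows are counted from the annotated start, with +1 the first base after it and -1 the last before it. The half-site in the window shown for Dnah11 begins at position -98 from that downstream start, and that of Rfx2 at -141, both on the gene's strand. In Hydin the half-site lies on the opposite strand at -6, next to the start. Dnaaf2, which encodes a factor that helps to pre-assemble dynein arms in the cytoplasm, carries a pair of cores on opposite strands that overlap in part, at -88 and -83.

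Most members were measured at low to middle levels. The mean over 15 libraries ran from 1.51 FPKM for Rfx3 to 49.8 FPKM for Cfap20, a small protein inside the doublet wall. Of the 55 tested members, 44 reached 1 FPKM in every library. Dnah7 passed the filter with 10 libraries and Cfap74 with 12, the fewest of those tested. The 10 members left out were Dnah5, Dnah8, Dnah17, Rsph4a, Rsph6a, Spag6, Spag16, Cfap58, Cfap58l1 and Cfap97d1. Dnah5 came closest, with 2 libraries at 1 FPKM, and the other 9 had none. Cfap58 was listed at 0 throughout, which in a table without counts may be a failed estimate. Spag6l, the name under which the rat table lists a second copy of Spag6, was not matched by the rule.

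Before the comparisons, 3 libraries stood apart from their groups. ALI 3 held far more of the large airway transcripts Bpifa1, Scgb3a1 and Muc5b than any other library. ALI 1 and SJY 1 held the largest shares of mitochondrially encoded RNA, 37.7% and 17.1% of summed FPKM. The counts of each comparison are given with and without them.

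**Figure D1:**
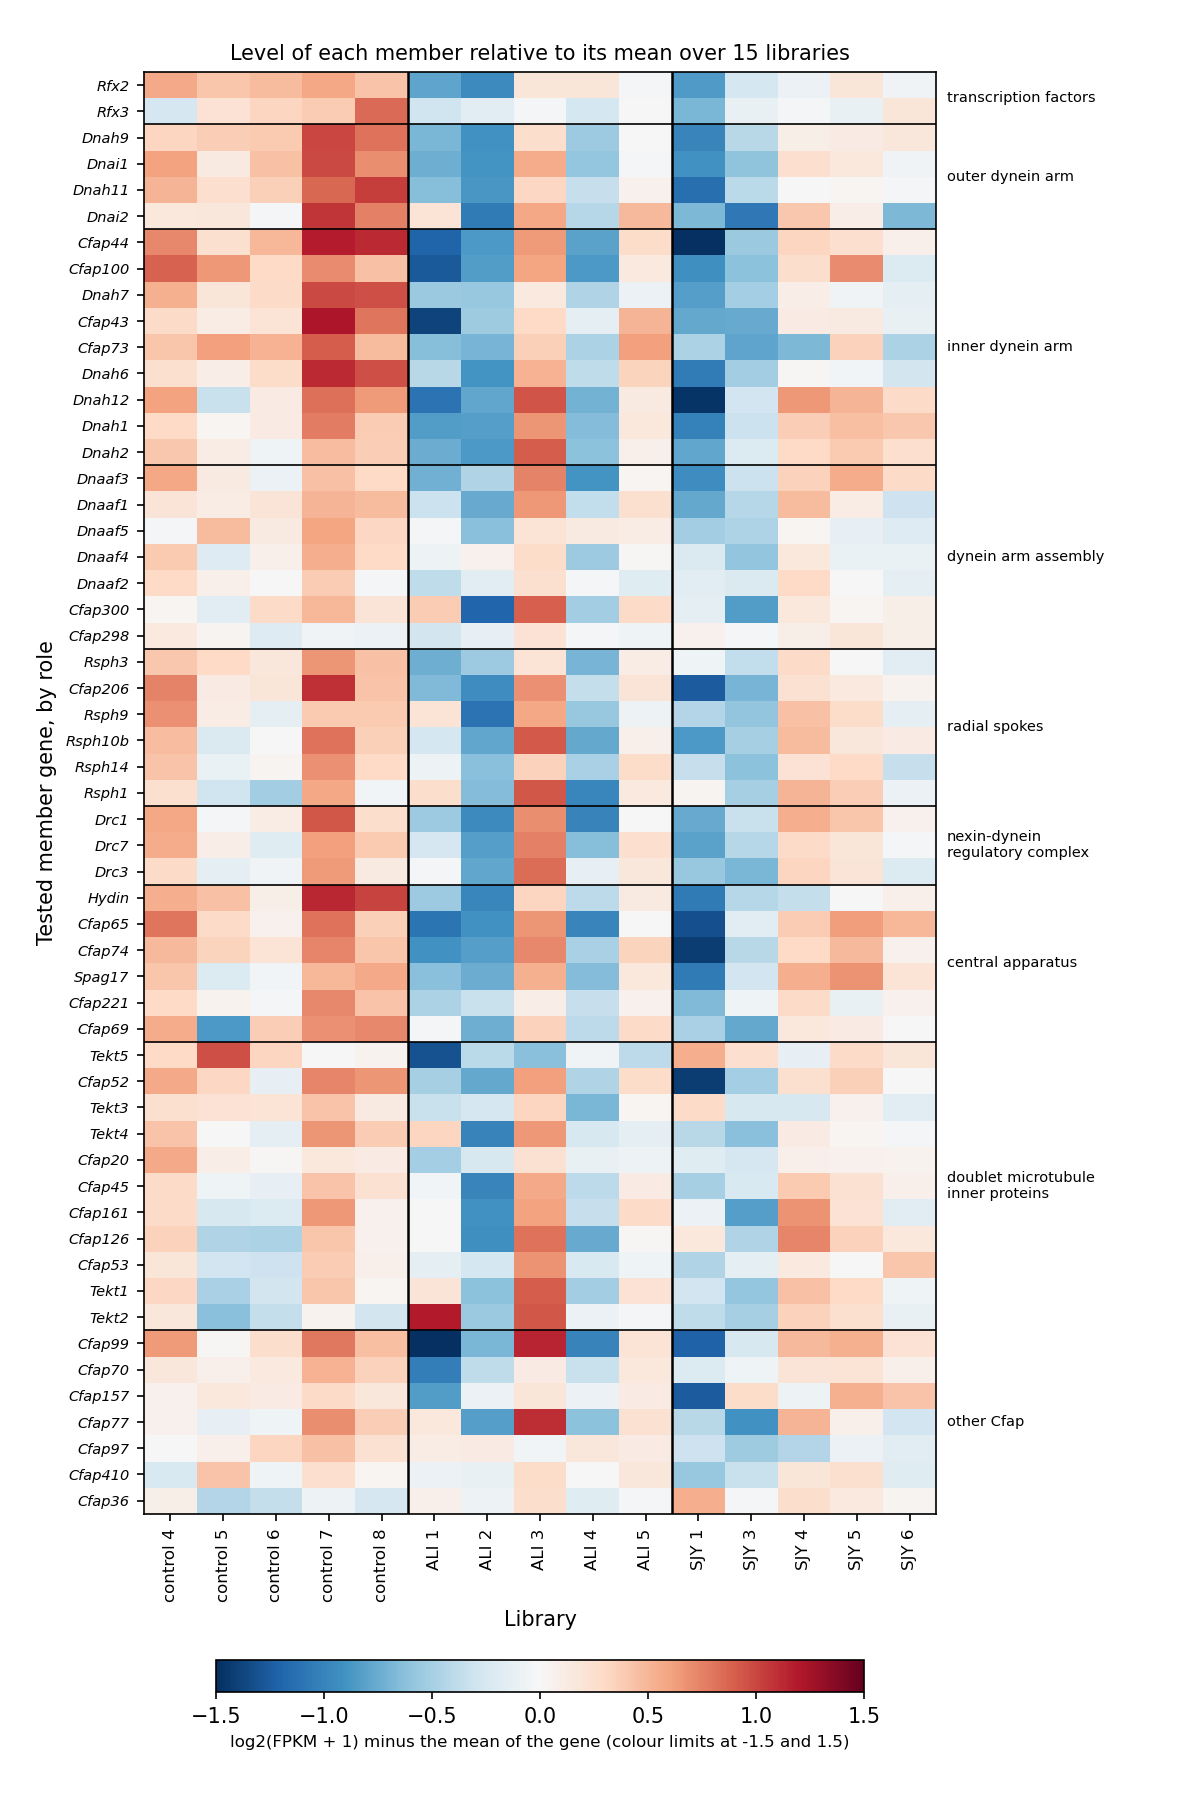
Level of each tested member in each library, as log2(FPKM + 1) minus the mean of the gene over the 15 libraries (red above, blue below), with genes grouped by role and black lines between groups. Control 7 and ALI 3 are red across most roles, and ALI 2 and SJY 1 are blue, so libraries of 1 group differ from each other as well as between groups.

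In ALI against control, 0 members rose and 9 fell, which is 16.4% of the 55 tested members. Over all 13457 tested genes, 8.02% rose and 9.56% fell by the same rule (limma on log2(FPKM + 1), Benjamini-Hochberg adjusted p under 0.05). The 9 were Cfap100, Dnah9, Hydin, Dnai1, Dnah11, Dnah7, Tekt5, Rfx2 and Rsph3. The estimate lay below 0 for 52 of 55 members, and their median log2 change was -0.47, beside -0.12 for all tested genes. Scaling by the median of ratios moved the median of all genes to -0.01 and that of the members to -0.36, with 48 estimates below 0 and 10 members falling. Under that scaling 1302 of all tested genes fell. Without ALI 3 18 members fell, without ALI 1 4 and without SJY 1, which enters only the shared spread, 11. For libraries left out, here and below, the share of all tested genes called is not given. These counts show how far the members' calls move and are not compared with the table. At an unadjusted p under 0.05, 21 members were lower and 0 higher. In 4 members (Dnah7, Dnah9, Rfx2 and Tekt5) every ALI library lay below every control library, 7.27% of the members beside 6.73% of all genes. No member had every ALI library above every control, as 6.17% of all genes did. A change on the log2(FPKM + 1) scale understates the fold of low genes.

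In SJY against control, 1 member rose (Cfap36) and 10 fell, which is 18.2% of the members. The background was higher in this comparison: 14.6% of all tested genes rose and 18.1% fell, so the members' share of falls was that of the whole table. With the mitochondrially encoded genes removed, 1355 genes rose and 3749 fell, in place of 1959 and 2431, and 0 members rose and 18 fell. Without SJY 1, 0 members rose and 5 fell, and without ALI 1 or without ALI 3, which enter only the shared spread, 1 rose and 12 fell. The 10 that fell in the full set were Cfap73, Hydin, Dnah6, Dnah11, Dnah7, Dnai1, Dnah9, Rfx2, Dnaaf5 and Cfap97. The median log2 change of the members was -0.40, beside -0.11 for all tested genes, and 50 of 55 estimates lay below 0. In 8 members all SJY libraries lay below all control libraries (14.5% beside 15.9% of all genes), and in 0 members all lay above (11.8% of all genes). Both comparisons use the same 5 control libraries, so the values are given side by side and their likeness is not counted as a result.

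In SJY against ALI, 0 members rose and 0 fell by limma's adjusted p, and in all tested genes 0.00743% rose and 0% fell. The members' counts were also 0 and 0 without ALI 1, without ALI 3 or without SJY 1. At an unadjusted p under 0.05, 1 member was higher (Tekt5) and 1 lower (Cfap97). The median log2 change of the members was 0.03, the same as the 0.03 of all tested genes.

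**Figure D2:**
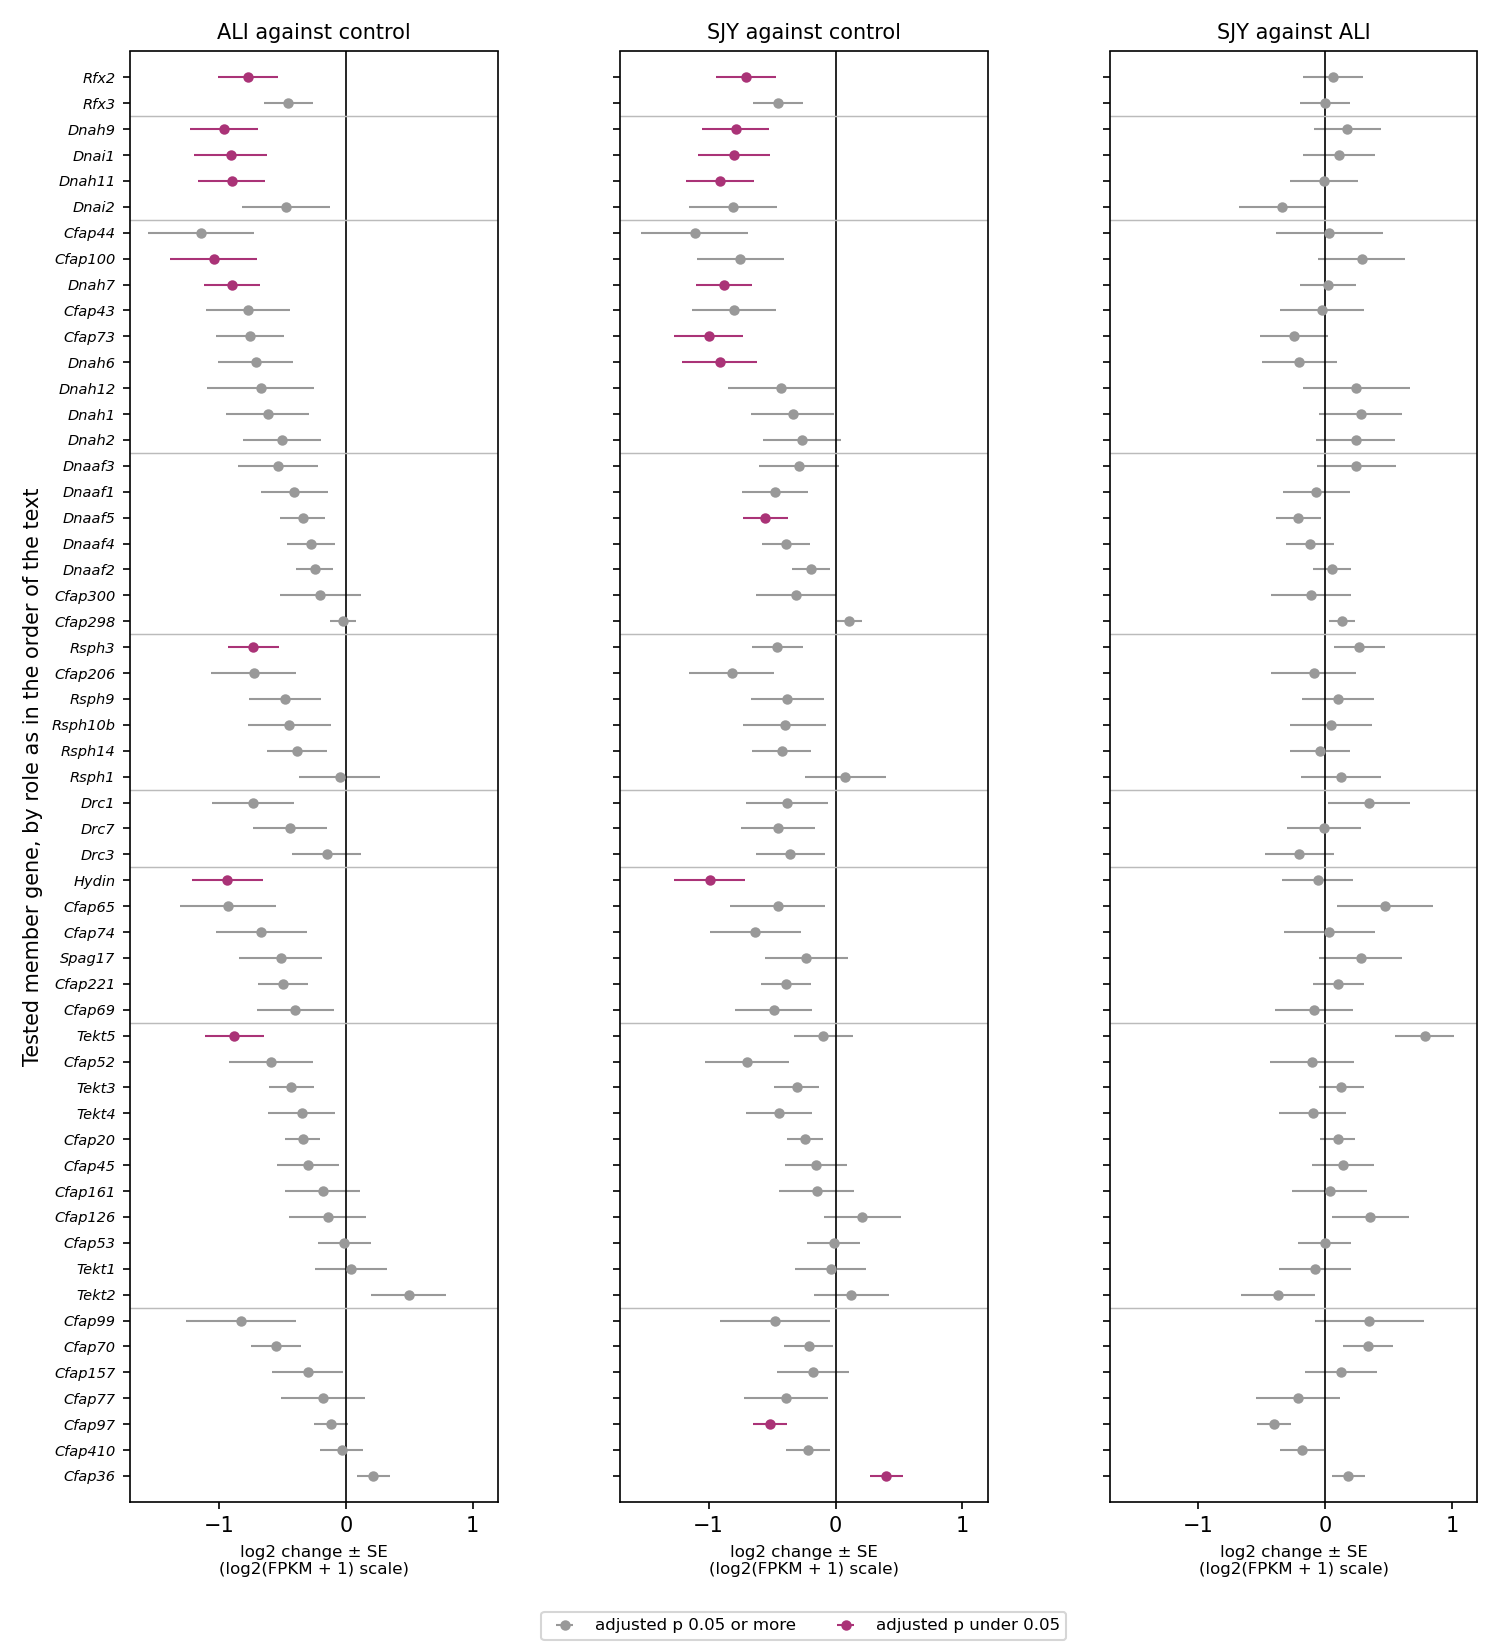
Log2 change (point) and limma standard error (bar) of each tested member in the 3 comparisons, with genes ordered by role from transcription factors at the top to other Cfap genes at the bottom. Purple points pass the adjusted threshold: 9 in ALI against control, 11 in SJY against control and 0 in SJY against ALI.

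The transcription factors are given first. Rfx2 stood at 11.2, 9.97, 10.5, 11.3 and 10.1 FPKM in controls, at 3.76, 3.24, 8.35, 8.34 and 7.15 across the ALI group and at 3.57, 5.84, 6.74, 8.35 and 6.95 across the SJY group. All 5 ALI libraries and all 5 SJY libraries lay below the lowest control library. It fell in ALI with a log2 change of -0.77 ± 0.24 (SE; limma adjusted p = 0.0346) and in SJY with -0.71 ± 0.24 (adjusted p = 0.0316). Control libraries were close together (10.6 ± 0.604 FPKM, SD, n = 5), while ALI 1 and ALI 2 were under the other ALI libraries. Rfx3, its partner, was much lower, at 1.04, 1.82, 2.03, 2.17 and 3.39 FPKM in control libraries, 0.971, 1.17, 1.41, 1.03 and 1.42 in ALI libraries and 0.513, 1.26, 1.38, 1.25 and 1.75 in SJY libraries. Its log2 change of -0.45 ± 0.20 in ALI did not pass the test (limma adjusted p = 0.116), nor did -0.45 ± 0.20 in SJY (adjusted p = 0.0871).

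Outer dynein arms supply most of the force of the beat. In each comparison with control 3 of their 4 tested members fell, which is 75.0%. Of all tested genes 9.56% fell in ALI and 18.1% in SJY. Dnah9, the heavy chain of the outer part of the airway cilium, stood at 4.16, 4.34, 4.4, 7.27 and 6.27 FPKM in controls, at 1.55, 1.19, 3.96, 1.82 and 3.1 across the ALI group and at 1.08, 2.09, 3.38, 3.48 and 3.65 across the SJY group. Its ALI libraries all lay below the controls, with a log2 change of -0.96 ± 0.26 (limma adjusted p = 0.0217). In SJY it fell with a log2 change of -0.79 ± 0.26 (adjusted p = 0.0327). Dnah11, the heavy chain of the part nearer the cell, stood at 4.17, 3.31, 3.63, 5.59 and 6.41 FPKM in control libraries, 1.33, 0.975, 3.47, 1.85 and 2.78 in ALI libraries and 0.657, 1.74, 2.61, 2.69 and 2.57 in SJY libraries. Only ALI 3 reached the control range, and the log2 change was -0.90 ± 0.27 in ALI (limma adjusted p = 0.0296) and -0.91 ± 0.27 in SJY (adjusted p = 0.0167).

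Dnai1, an intermediate chain that ties the outer arm to the doublet, stood at 7.47, 5.12, 6.53, 10.1 and 8.0 FPKM in controls, at 2.35, 1.99, 7.19, 2.72 and 4.44 across the ALI group and at 1.97, 2.67, 5.61, 5.23 and 4.37 across the SJY group. ALI 3 and, in SJY, libraries 4 and 5 lay inside the control range. It fell with a log2 change of -0.91 ± 0.29 in ALI (limma adjusted p = 0.0391) and with -0.80 ± 0.29 in SJY (adjusted p = 0.0422). Dnai2, the other intermediate chain, did not pass: its log2 change was -0.47 ± 0.34 in ALI (adjusted p = 0.337) and -0.81 ± 0.34 in SJY (adjusted p = 0.0831).

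Dnah5, the heavy chain found along the whole axoneme and the gene most often linked to human primary ciliary dyskinesia, was too low to be tested. It stood at 0.67, 0.749, 0.585, 1.26 and 1.31 FPKM in control libraries, 0.114, 0.132, 0.211, 0.117 and 0.349 in ALI libraries and 0.0961, 0.274, 0.326, 0.283 and 0.264 in SJY libraries. All ALI and SJY libraries were below all control libraries. When the filter on low values was dropped, its log2 change was -0.68 in ALI (limma adjusted p = 0.00119) and -0.60 in SJY (adjusted p = 0.00146). How many fragments such low values rest on is unknown.

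Inner dynein arms shape the bend of the cilium. Of their 9 tested members, 2 fell in ALI (22.2%, beside 9.56% of all tested genes) and 3 in SJY against control (33.3%, beside 18.1%). All 9 estimates lay below 0 in both. Cfap100, part of a complex that regulates an inner arm, stood at 27.4, 23.3, 18.0, 24.3 and 19.9 FPKM in controls, at 5.42, 7.62, 22.4, 7.51 and 16.1 across the ALI group and at 7.16, 9.09, 17.5, 24.2 and 12.3 across the SJY group. ALI 3 was inside the control range and the other 4 ALI libraries were below it. The log2 change was -1.04 ± 0.34 in ALI (limma adjusted p = 0.0473) and -0.75 ± 0.34 in SJY, which did not pass (adjusted p = 0.104). Dnah7, an inner arm heavy chain, stood at 2.51, 1.75, 1.96, 3.8 and 3.71 FPKM in control libraries, 0.641, 0.63, 1.67, 0.762 and 1.27 in ALI libraries and 0.366, 0.696, 1.58, 1.34 and 1.19 in SJY libraries. No ALI or SJY library reached the lowest control, and it fell with a log2 change of -0.90 ± 0.22 in ALI (adjusted p = 0.0124) and with -0.88 ± 0.22 in SJY (adjusted p = 0.00761).

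Cfap73, the partner of Cfap100 in that complex, stood at 5.13, 6.0, 5.58, 7.6 and 5.36 FPKM in controls, at 1.95, 1.82, 4.87, 2.29 and 6.0 across the ALI group and at 2.29, 1.65, 1.87, 4.82 and 2.3 across the SJY group. In ALI the libraries were split, with 3 and 5 near the controls and the rest near 2 FPKM. In SJY all were below the lowest control. It fell in SJY with a log2 change of -1.0 ± 0.27 (limma adjusted p = 0.0108), and the change of -0.76 ± 0.27 in ALI missed the threshold (adjusted p = 0.0622). Dnah6, another inner arm heavy chain, stood at 3.7, 3.26, 3.83, 7.64 and 6.77 FPKM in control libraries, 1.98, 1.14, 4.7, 2.04 and 4.0 in ALI libraries and 0.922, 1.76, 3.03, 2.88 and 2.3 in SJY libraries. It fell in SJY with a log2 change of -0.91 ± 0.29 (adjusted p = 0.0268), with every library under the controls. Its change of -0.71 ± 0.29 in ALI did not pass (adjusted p = 0.101).

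The largest estimate of any member in ALI belonged to Cfap44, part of the tether that holds an inner arm motor head. It stood at 18.9, 13.2, 16.1, 26.2 and 25.2 FPKM in controls, at 4.23, 5.62, 17.8, 5.9 and 13.6 across the ALI group and at 2.24, 7.22, 14.1, 13.4 and 11.7 across the SJY group. ALI 3 and ALI 5 were inside the control range and the other ALI libraries far below it. The log2 change of -1.14 ± 0.42 in ALI did not pass (limma adjusted p = 0.0694), nor did -1.11 ± 0.42 in SJY (adjusted p = 0.0533). Its tether partner Cfap43 had -0.77 ± 0.33 (adjusted p = 0.111) and -0.80 ± 0.33 (adjusted p = 0.0748). Dnah1, Dnah2 and Dnah12 ranged from -0.67 to -0.51 in ALI and did not pass either. Over both kinds of arm, 7 of 10 dynein heavy chains were tested. Their median log2 change was -0.71 in ALI and -0.79 in SJY against control. In ALI 3 of 7 fell (42.9%, beside 9.56% of all tested genes), and in SJY 4 of 7 (57.1%, beside 18.1%).

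**Figure D3:**
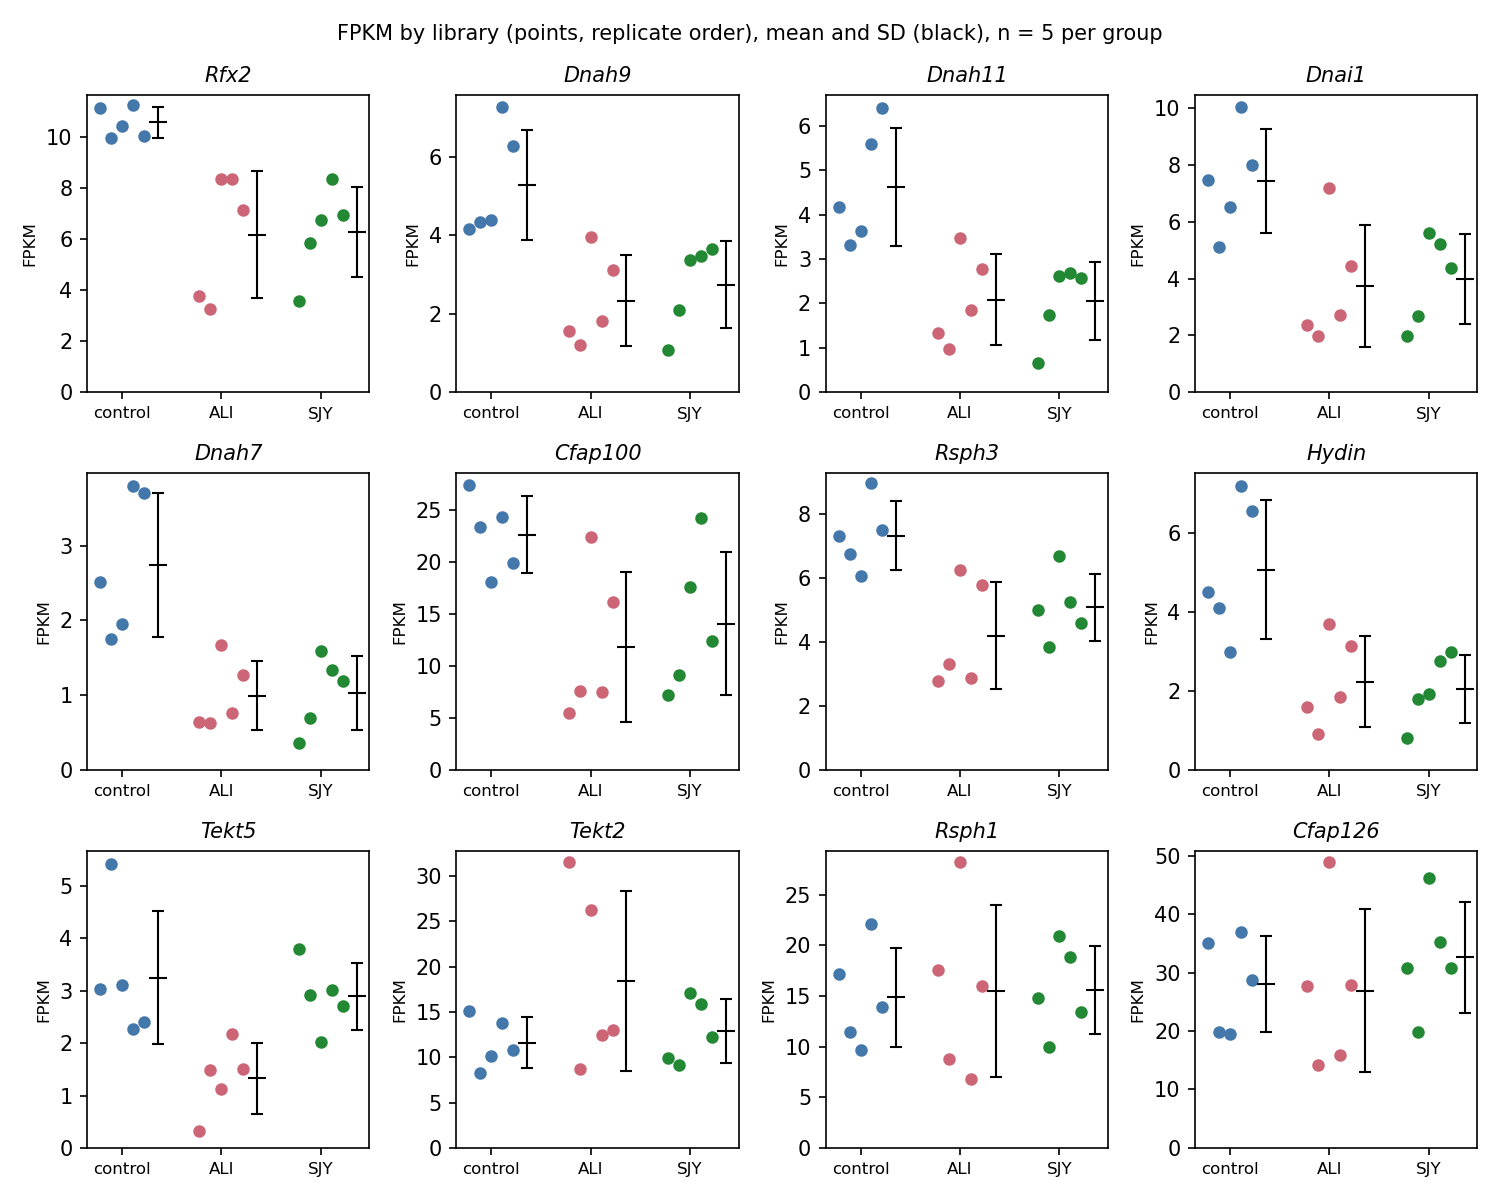
FPKM of 12 members by library (coloured points, libraries in the order of their numbers), with the mean and SD of each group of 5 in black. Rfx2, Dnah9, Dnah7 and Tekt5 show ALI points that do not reach the control range, while Tekt2, Rsph1 and Cfap126 show groups that overlap widely.

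Dynein arm assembly factors fold and join the motors in the cytoplasm before they enter the cilium. None of the 7 passed in ALI by limma, also at an unadjusted p under 0.05, and their log2 changes ran from -0.53 (Dnaaf3) to -0.02 (Cfap298). Cfap298, the most abundant, stood at 45.2, 41.8, 35.5, 39.3 and 38.1 FPKM in control libraries, 33.5, 37.3, 47.6, 39.8 and 38.8 in ALI libraries and 42.6, 40.2, 43.2, 46.1 and 43.4 in SJY libraries. Its change was -0.02 ± 0.10 in ALI (limma adjusted p = 0.879) and 0.11 ± 0.10 in SJY (adjusted p = 0.432), small beside the spread of libraries. Of the 7, 1 fell in SJY against control, 14.3% beside 18.1% of all tested genes. This was Dnaaf5, with a log2 change of -0.55 ± 0.18 (limma adjusted p = 0.0262). It stood at 8.25, 12.1, 9.31, 13.2 and 10.7 FPKM in controls, at 8.2, 5.09, 9.82, 9.37 and 9.14 across the ALI group and at 5.54, 5.83, 8.59, 7.63 and 7.24 across the SJY group, so SJY 4 overlapped the lowest control and ALI 2 lay apart from the rest of its group. Its ALI change of -0.34 ± 0.18 did not pass (adjusted p = 0.181).

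Radial spokes carry signals from the central pair to the dynein arms. Of 6 tested spoke members, 1 fell in ALI, 16.7% beside 9.56% of all tested genes. This was Rsph3, a scaffold of the spoke stalk, with a log2 change of -0.73 ± 0.20 (limma adjusted p = 0.021). It stood at 7.3, 6.74, 6.05, 8.95 and 7.5 FPKM in control libraries, 2.77, 3.31, 6.23, 2.86 and 5.76 in ALI libraries and 4.98, 3.85, 6.68, 5.25 and 4.6 in SJY libraries. ALI 3 lay just above the lowest control, ALI 5 just below it, and ALI 1, 2 and 4 well below. In SJY its change of -0.46 ± 0.20 did not pass (adjusted p = 0.0887). Rsph1, a spoke head protein and the most abundant spoke member, stood at 17.1, 11.5, 9.7, 22.1 and 13.9 FPKM in controls, at 17.5, 8.77, 28.2, 6.82 and 16.0 across the ALI group and at 14.8, 9.92, 20.9, 18.9 and 13.4 across the SJY group. Its groups overlapped. Its log2 change was -0.05 ± 0.32 in ALI (adjusted p = 0.924) and 0.08 ± 0.32 in SJY (adjusted p = 0.875).

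The nexin-dynein regulatory complex links neighbouring doublets. None of its 3 members passed in any comparison. Drc1, its core scaffold, stood at 12.9, 8.17, 9.07, 16.8 and 10.2 FPKM in control libraries, 5.42, 3.82, 14.1, 3.66 and 8.31 in ALI libraries and 4.51, 6.4, 12.6, 11.5 and 8.76 in SJY libraries. ALI 3 was inside the control range and ALI 2 and 4 were lowest of all 15. The change was -0.73 ± 0.32 in ALI (limma adjusted p = 0.121) and -0.39 ± 0.32 in SJY (adjusted p = 0.38). Drc7 and Drc3 had -0.44 and -0.15 in ALI.

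The central apparatus surrounds the central pair. Hydin, a very large protein of its projections, fell in both comparisons with control, with a log2 change of -0.93 ± 0.28 in ALI (limma adjusted p = 0.0311) and with -0.99 ± 0.28 in SJY (adjusted p = 0.0138). It stood at 4.5, 4.1, 2.99, 7.21 and 6.57 FPKM in controls, at 1.58, 0.905, 3.71, 1.85 and 3.13 across the ALI group and at 0.81, 1.8, 1.93, 2.77 and 2.98 across the SJY group. Of the ALI libraries, 3 and 5 were above the lowest control (control 6), and no SJY library was. Cfap65, the most abundant member of this role, stood at 25.2, 17.4, 14.7, 25.5 and 18.3 FPKM in control libraries, 6.08, 7.02, 22.9, 6.62 and 14.1 in ALI libraries and 5.04, 12.5, 18.7, 22.4 and 20.2 in SJY libraries. Its change was -0.93 ± 0.38 in ALI (adjusted p = 0.0964) and -0.46 ± 0.38 in SJY (adjusted p = 0.374), so it did not pass. The other 4 tested members (Cfap74, Spag17, Cfap221 and Cfap69) had log2 changes from -0.67 to -0.40 in ALI and did not pass. Spag6l, outside the rule, stood at 13.0 ± 5.82 FPKM in controls, 8.13 ± 4.64 with LPS alone and 5.51 ± 2.59 with LPS and Sang Ju Yin (SD, n = 5). It fell in SJY with -1.11 ± 0.37 (limma adjusted p = 0.0325) and did not pass in ALI (-0.68 ± 0.37, adjusted p = 0.199).

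Proteins inside the doublet wall, including the tektins, had smaller estimates than the dynein arms. Of 11 members, 1 fell in ALI (9.09%, beside 9.56% of all tested genes) and 0 in SJY against control (beside 18.1%). Their median log2 change in ALI was -0.30, beside -0.91 for the outer arm and -0.76 for the inner arm members, and the difference between roles was not tested. Cfap20, the most abundant, stood at 73.5, 52.9, 49.6, 54.9 and 53.4 FPKM in controls, at 34.1, 41.3, 57.5, 45.2 and 46.4 across the ALI group and at 43.1, 41.1, 52.0, 51.4 and 50.9 across the SJY group. Its change of -0.34 ± 0.14 in ALI did not pass (limma adjusted p = 0.0985), nor did -0.24 ± 0.14 in SJY (adjusted p = 0.197).

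Tekt5 was the member of this role that fell in ALI, and it did not follow the other members across libraries. It stood at 3.04, 5.41, 3.1, 2.27 and 2.4 FPKM in control libraries, 0.33, 1.48, 1.13, 2.18 and 1.51 in ALI libraries and 3.79, 2.92, 2.02, 3.02 and 2.71 in SJY libraries. ALI 1 was lowest and control 5 highest, while for most members control 7 and ALI 3 were the highest of their groups. The log2 change was -0.88 ± 0.23 in ALI (limma adjusted p = 0.0174) and -0.10 ± 0.23 in SJY against control (adjusted p = 0.778). Among the 5 tektins, Tekt3 and Tekt4 had -0.43 and -0.35 in ALI and did not pass.

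Tekt1, Tekt2 and Cfap36 were the only members with an estimate above 0 in ALI (7 members under median-of-ratios scaling), and none of them passed. Tekt2, a filament protein of the doublet, stood at 15.1, 8.29, 10.2, 13.8 and 10.8 FPKM in controls, at 31.6, 8.71, 26.3, 12.4 and 13.0 across the ALI group and at 9.95, 9.12, 17.1, 15.9 and 12.2 across the SJY group. Its estimate of 0.50 ± 0.29 came with 2 libraries, ALI 1 and ALI 3, above all controls (limma adjusted p = 0.237). Tekt1 stood at a mean of 10.4 ± 2.96 FPKM in control and 11.4 ± 5.51 in ALI (SD, n = 5). Cfap36, named for a flagellar proteome and expressed in many tissues, was the only member that rose in SJY against control, with a log2 change of 0.40 ± 0.13 (adjusted p = 0.0304). It stood at 35.2, 24.1, 25.6, 31.2 and 27.5 FPKM in control libraries, 34.7, 31.2, 39.8, 29.0 and 32.5 in ALI libraries and 48.5, 32.6, 39.9, 36.5 and 33.8 in SJY libraries. SJY 1 was the highest of all libraries, and 3 of the 5 SJY libraries lay above every control. The rise was lost without control 5, 6 or 8, SJY 1 or SJY 4, each left out alone (limma adjusted p from 0.0637 to 0.0796), and without the mitochondrially encoded genes (0.121).

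Cfap97, a protein with a wide tissue range, stood at 4.16, 4.45, 5.5, 6.0 and 5.07 FPKM in controls, at 4.6, 4.65, 4.02, 4.8 and 4.63 across the ALI group and at 3.17, 2.59, 2.81, 3.87 and 3.65 across the SJY group. All SJY libraries were below all ALI libraries and all control libraries, while ALI and control overlapped. It fell in SJY against control with a log2 change of -0.52 ± 0.13 (limma adjusted p = 0.00837) and had -0.12 ± 0.13 in ALI against control (adjusted p = 0.55). The other 5 tested members of this group (Cfap70, Cfap77, Cfap99, Cfap157 and Cfap410) did not pass in any comparison. Cfap99 had the widest spread, at 24.4 ± 5.25 FPKM in control and 16.8 ± 14.1 in ALI (SD, n = 5).

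The SJY and ALI libraries could not be separated for any member by limma's adjusted p. Tekt5 was nearest, at 0.78 ± 0.23 higher in SJY (adjusted p = 0.234, 95% interval 0.29 to 1.28 before adjustment), with SJY 4 inside the ALI range. Cfap97 was -0.40 ± 0.13 (adjusted p = 0.269, interval -0.68 to -0.12), and was the 1 member without overlap, 1.82% of members beside 0.988% of all genes lower in SJY. In 0 members did every SJY library exceed every ALI library, as in 2.24% of all genes. For the members that fell in both comparisons with control the intervals were wide. The SJY minus ALI difference was 0.17 ± 0.26 for Dnah9 (95% interval -0.39 to 0.74), 0.11 ± 0.29 for Dnai1 (-0.50 to 0.71) and -0.06 ± 0.28 for Hydin (-0.65 to 0.53). For Rfx2 it was 0.06 ± 0.24 (-0.44 to 0.56), and for Dnah7 0.02 ± 0.22 (-0.45 to 0.49). These intervals hold 0 and values well away from 0 on both sides, so they do not show that the groups were alike. Among the most abundant members, Cfap298 had 0.13 ± 0.10, Cfap20 0.10 ± 0.14, Cfap65 0.47 ± 0.38 and Cfap100 0.29 ± 0.34, and none passed.

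Libraries of 1 group differed in the members as a whole. ALI 3 was the highest of the ALI libraries for 48 of 55 members, and ALI 2 the lowest for 31. In control, library 7 was highest for 42. In SJY, library 1 was lowest for 32 and library 4 highest for 29. The median deviation of the members from their gene means was 0.57 in ALI 3, above 4 of the 5 control libraries, and -0.75 in ALI 2, on the log2 scale. The control libraries ran from 0.09 to 0.64, the other ALI libraries from -0.45 to 0.12, and the SJY libraries from -0.67 to 0.26.

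**Figure D4:**
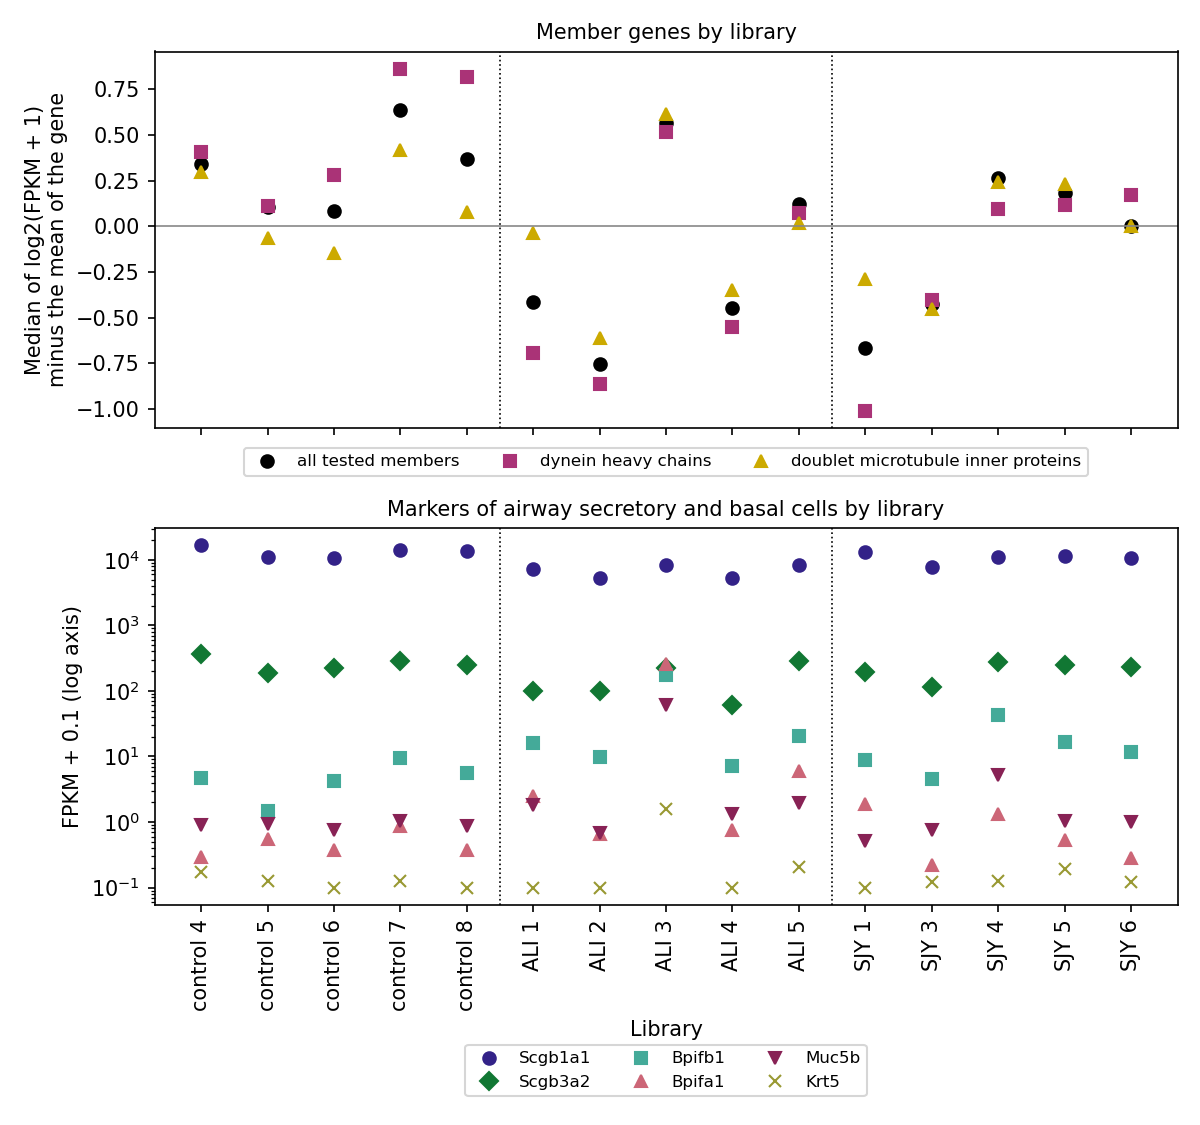
Top, the median over members of log2(FPKM + 1) minus the mean of the gene in each library, for all 55 tested members, the 7 dynein heavy chains and the 11 doublet inner proteins. Bottom, FPKM plus 0.1 (log axis) of 6 markers of airway secretory and basal cells, where ALI 3 has 253 FPKM of Bpifa1 and 60.6 FPKM of Muc5b and every other library far less.

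Several markers of larger airway cells set ALI 3 apart. It held 253 FPKM of Bpifa1, 305 of Scgb3a1, 176 of Bpifb1 and 60.6 of Muc5b, which are secreted by cells of the larger airways, and 1.46 FPKM of Krt5, a basal cell keratin. The next highest library had 6.0, 33.9, 43.4, 5.12 and 0.104 FPKM of these genes. Of the other basal markers, Krt14, Ngfr and Tp63 were also highest in ALI 3, at low levels, with Krt14 at 2.52 FPKM there and 1.94 in ALI 4. Krt15, the 1 basal marker tested, was not: it stood at 2.83 FPKM in ALI 3 and 8.59 in control 7. The 5 basal markers summed to 9.38 FPKM in ALI 3 and 10.4 in control 7. The summed level of 9 airway secretory markers, which is mostly Scgb1a1 of club cells, was 10951 to 17134 FPKM in control, 5383 to 9253 in ALI and 7866 to 13514 in SJY. In ALI the sum was highest in ALI 3 and lowest in ALI 2, as for most members. In the other groups the order differed: SJY 1, lowest in its group for most members, had the highest SJY sum, and control 4 had the highest control sum, with 14690 FPKM in control 7. Of the 8 tested, 2 fell in ALI (Scgb1a1 and Cyp2f4) and 1 in SJY, and Tff2 was listed at 0 in every library. The 6 pan-epithelial markers, such as Epcam, summed to 468 to 535 FPKM in control, 190 to 379 in ALI and 245 to 302 in SJY, with 4 of 6 lower in each. Markers of cells outside the airways fell too. All 8 alveolar type I markers fell in ALI and 6 of 8 in SJY, with a summed level of 2893 to 4148 FPKM in control, 653 to 2065 in ALI and 1515 to 2395 in SJY. Of the 8 alveolar type II markers, 2 fell in ALI and 3 in SJY. Of the 8 neutrophil markers, 7 rose in both. Over all tested genes, 9.56% fell and 8.02% rose in ALI, and 18.1% fell and 14.6% rose in SJY. The mitochondrially encoded share was 5.19% to 14.1% outside ALI 1 and SJY 1. The part of these differences in the members' result was not tested.

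The members called in ALI changed when single libraries were left out. A smaller group gives less power for every gene, so these counts are not a trait of the members. Besides the counts without ALI 1 or ALI 3, 3 members were lower than control without ALI 2, 2 without control 7 and 3 without control 8. When only ALI and control were fitted, Dnah7, Dnah9 and Dnah11 passed. The other 6 calls were lost, Tekt5 at an adjusted p of 0.051 (limma), Rsph3 at 0.0537, Hydin at 0.0562, Rfx2 at 0.0583, Dnai1 at 0.059 and Cfap100 at 0.0598. Dnah7 and Tekt5 passed whichever single library was left out. Among single libraries, leaving out control 7 alone lost Rsph3 (limma adjusted p = 0.0592). Dnah9 was lost without control 7, control 8 or ALI 2 (adjusted p from 0.0546 to 0.0613). Dnah11 was lost without those or ALI 1 (from 0.0531 to 0.0775), and Hydin also without ALI 4 (from 0.0515 to 0.0852). Rfx2 was lost without any 1 control library, ALI 1 or ALI 2 (from 0.0508 to 0.0816). Dnai1 was lost without control 4, 6, 7 or 8 or ALI 1, 2 or 4 (from 0.0537 to 0.0991). Cfap100 was lost without any 1 control library, without ALI 1, 2 or 4, or without SJY 3, 4 or 6, which enter the shared spread (from 0.055 to 0.097). Leaving out ALI 1 and ALI 3 together gave 9 members lower, with Tekt5 (0.0835) and Rfx2 (0.0599) lost. Leaving out ALI 1 and SJY 1 together also gave 9, with Cfap100 lost (0.0702). Both choices were made after seeing the data.

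In SJY against control, 5 members were lower without control 7, control 8, SJY 1 or SJY 3, each left out alone. Dnah7, Dnah11, Hydin, Cfap73 and Cfap97 passed whichever single library was left out. Dnah9 and Dnah6 were lost without any 1 of those 4 libraries (limma adjusted p from 0.0725 to 0.087 for Dnah9 and from 0.0571 to 0.0756 for Dnah6). Dnaaf5 was lost without these or control 5 (from 0.0521 to 0.0735). Rfx2 was lost without any 1 control library, SJY 1 or SJY 3 (from 0.0504 to 0.0845). Dnai1 was lost without control 4, 6, 7 or 8 or SJY 1, 3 or 6 (from 0.0541 to 0.111). Without ALI 1 and SJY 1 together 7 members were lower, and without ALI 1 and ALI 3 together, which enter only the shared spread, 15.

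Genes that work in the same cilium but lie outside the naming rule passed no more often than the table as a whole. Of 72 other motile cilium genes listed, 62 were in the table and 58 tested. In ALI 0 rose and 5 fell, 8.62% beside 9.56% of all tested genes, with a median log2 change of -0.40 beside -0.12. Estimates lay below 0 for 51 of the 58 and above 0 for 7. Tppp3, a microtubule-binding protein and a common ciliated cell marker, fell from 437 ± 36.8 to 264 ± 69.1 FPKM (SD, n = 5; -0.76 ± 0.16, limma adjusted p = 0.00472). Across libraries Tppp3 did not follow most members. Its highest control value was in library 5 (494 FPKM) and its highest ALI value in library 4 (357 FPKM), with 250 FPKM in ALI 3. Dnal1, a light chain of the outer dynein arm, fell with -0.82 ± 0.23 (adjusted p = 0.023). C1qtnf7, a secreted protein whose place in a list of cilium genes is doubtful, had the largest fall, -1.01 ± 0.33 (adjusted p = 0.0455). The remaining 2 were Spef1, of the central apparatus, and Ttll6, an enzyme that adds glutamate chains to tubulin.

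In SJY against control 2 of these genes rose and 9 fell. The falls were 15.5% of the list beside 18.1% of all tested genes, and the rises 3.45% beside 14.6%. The median was -0.31, beside -0.11 for all tested genes. Dnal1 fell with -1.21 ± 0.23 (limma adjusted p = 0.00138), Ccdc40, which sets the spacing of arms and spokes, with -1.18 ± 0.28 (adjusted p = 0.0057), and Maats1, a spoke protein also called Cfap91, with -1.07 ± 0.35 (adjusted p = 0.0293). The 2 that rose were tubulins used far beyond cilia: Tuba1a with 0.57 ± 0.16 (adjusted p = 0.0148) and Tubb4b with 0.36 ± 0.10 (adjusted p = 0.0117). In SJY against ALI 0 rose and 0 fell by limma's adjusted p; before adjustment 3 were higher and 0 lower. The 3 most abundant had 0.55 ± 0.16 (Tppp3, adjusted p = 0.234), 0.50 ± 0.16 (Tuba1a, adjusted p = 0.267) and 0.17 ± 0.10 (Tubb4b, adjusted p = 0.532).

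Intraflagellar transport carries parts into and out of every cilium, motile or not. Of 36 tested genes for it and for the BBSome cargo adaptor, 0 rose and 3 fell in ALI, 8.33% beside 9.56% of all tested genes. They were Ift88 with -0.73 ± 0.19 (limma adjusted p = 0.0146), Bbs2 with -0.69 ± 0.22 (adjusted p = 0.04) and Dync2h1, the return motor, with -0.59 ± 0.16 (adjusted p = 0.0221). In SJY against control 1 rose (Arl3, a small GTPase, 0.58 ± 0.17, adjusted p = 0.0155) and 9 fell, among them Traf3ip1 with -0.73 ± 0.26 (adjusted p = 0.0398), Ift88 with -0.71 ± 0.19 (adjusted p = 0.00913) and Dync2h1 with -0.70 ± 0.16 (adjusted p = 0.00485). The 9 were 25.0% of the list, beside 18.1% of all tested genes, a difference that was not tested. In SJY against ALI limma gave 0 calls; before adjustment 3 genes were higher and 0 lower. The list includes genes of the single sensory cilium of other lung cells.

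The 14 tested regulators of multiciliation and of the deuterosome, the structure that multiplies basal bodies, gave 0 calls in either direction in all 3 comparisons by limma, with 3 higher and 3 lower in ALI, 1 and 1 in SJY against control and 0 and 0 in SJY against ALI at an unadjusted p under 0.05. Their median log2 change in ALI was -0.02, with 7 estimates below 0 and 7 above. They ran from -0.67 ± 0.30 for Myb (limma adjusted p = 0.127) to 0.87 ± 0.35 for Ccno (adjusted p = 0.0931). Ccno stood at a mean of 0.602 ± 0.133 FPKM in control and 2.40 ± 2.34 in ALI (SD, n = 5). ALI 3 held 6.41 FPKM, and the other ALI libraries 0.728 to 2.50. The 3 most abundant, E2f4, Tfdp1 and Rfx1, are used in many cells, and had 0.11, 0.25 and -0.35 in ALI.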

How the data were processed

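Lung RNA of 15 rat libraries was measured by RNA sequencing. TRIzol extraction and library preparation with a NEBNext Ultra RNA kit are given per the labels' protocols. Trimming, alignment and quantification tools (cutadapt, HISAT2 and StringTie) and the build Rnor_6.0 are listed per the submitters' processing notes. Versions and a strand setting are not given in the sources used here. The authors deposited FPKM values with no counts, per the file headers. Depth, counting intervals and detection limits are therefore unknown, and genes overlapping on opposite strands, or close paralogs such as the dynein heavy chains, may share reads. Summed FPKM per library was 495244 to 700068, with 11865 to 13313 genes at 1 FPKM or more.

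FPKM was turned into log2(FPKM + 1), with a pseudocount of 1, and genes at 1 FPKM or more in at least 5 libraries were kept. limma 3.58.1 in R 4.3.3 fitted the 3 groups together (eBayes with trend and robust settings), two-sided, with Benjamini-Hochberg adjustment over 13457 genes and a threshold of 0.05. SEs and 95% intervals are limma's, SDs are of FPKM. Promoter windows came from RefSeq (GRCr8), a build other than that of the files. Marker sums are of FPKM.

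The members, roles, lists and tests were chosen with earlier results of these data known. For each comparison and role, values per library were given for up to 3 members called per direction with the largest change, or for the most abundant where none was called. Rfx2 and Rfx3, and members called against the common direction, were always given. Dnah5, Cfap44, Tekt2, Ccno and Myb were added after their values were seen. For other lists, up to 3 called genes per direction, or the 3 most abundant, were named. Alternatives were scaling by median of ratios, removal of 13 mitochondrially encoded genes, plain limma (neither trend nor robust), another pseudocount (0.1), all genes unfiltered, only genes with a mean of 5 FPKM or more, 2 groups only, array weights, a replicate block, leaving out each library, and 2 pairs of libraries left out, chosen after seeing the data. The labels name no batch. A planned comparison of tektin proteins was not made.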

Additional observations from a re-analysis of the deposited data

Results flagged for a closer look

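In 165 groups of 5 values (55 members in 3 groups), 7 had a library whose distance to its nearest neighbour took up more than the 95% critical share (Dixon) of the group's range. Chance alone does this in about 1 group in 20. In control, Cfap69, of the central apparatus, was 2.10 FPKM in library 5 beside 6.25 to 8.30 in the others, and Cfap20 was 73.5 FPKM in library 4 beside 49.6 to 54.9. In ALI, Cfap53 was 8.45 FPKM in library 3 beside 3.93 to 4.66, and Cfap97 was 4.02 FPKM in the same library beside 4.60 to 4.81. Dnaaf5 was 5.09 FPKM in ALI 2 beside 8.20 to 9.82. Cfap157, of the Cfap family, was 4.10 FPKM in ALI 1 beside 7.56 to 9.36. In SJY, Cfap73 was 4.82 FPKM in library 5 beside 1.65 to 2.30. ALI 3 gave the highest value for Cfap53 and the lowest for Cfap97.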

How the results depend on the processing

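Each count was recomputed under 26 other settings, of which 15 left out 1 library each. For most settings the share of all tested genes called is not given, so the members' counts are not compared with the table. No member rose in ALI, and none was called in SJY against ALI, under any of them. No called member changed direction. In ALI against control the 9 falls became 4 with a minimum mean of 5 FPKM (35 members tested), 3 when only both groups were fitted, 16 with array weights and 0 with the replicate block, and 2 to 18 with 1 library left out. The median change of -0.47 became -0.0486 with the block and lay from -0.65 to -0.35 with 1 library left out. In SJY against control the 10 falls became 18 without mitochondrially encoded genes, 3 with the minimum mean, 16 with both groups alone, 19 with array weights and 0 with the block, and 5 to 12 with 1 library left out. The 1 rise became 0 without mitochondrially encoded genes and 0 with the block, and was 0 to 1 with 1 library left out. A minimum mean tests fewer genes. The block has a term for each replicate number. The numbers of ALI 2, control 7 and control 8 are shared with no other library, so these libraries do not inform the block comparisons. Their median deviations of the members were -0.75, 0.64 and 0.37. Whether their loss accounts for the change under the block was not tested, nor were other causes. The added terms also leave less information on the spread.

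The replicate numbers are shared by part of the libraries only. Deviations of same-numbered libraries correlated from -0.389 to 0.302. The labels do not say whether a shared number pairs samples, and these values do not settle it. Of the 4 numbers shared by ALI and SJY, 2 ALI libraries correlated best with their own number, and so did 3 of 3 control libraries with SJY. FPKM carries no depth, so how far counting error limits the lowest members is unknown.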
